A study of Mus musculus with 6 samples.

Results

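Fibrillar collagens are the rope-like proteins of connective tissue, and their chains are encoded by a gene family of which 10 members are described here: Col1a1, Col1a2, Col3a1, Col5a1, Col5a2, Col5a3, Col11a1, Col11a2, Col24a1 and Col27a1. They were chosen by gene symbol and were found as 10 of the 24061 rows of a table of RNA sequencing counts per gene. The 6 libraries come from cultured resident fibroblasts of fibrotic lungs, taken from mice that carry a TGF-alpha transgene, which codes for an epidermal growth factor family ligand. Cells of 3 libraries (numbered 1 to 3) were transfected with a stealth control siRNA and those of the other 3 (numbered 4 to 6) with a stealth siRNA against Wt1, which encodes a zinc finger transcription factor. All 6 libraries therefore share the transgene, the fibrotic origin and a transfection, and no library is from a healthy lung. No source used here gives the promoter of the transgene, the age of the mice, the siRNA sequences or the time to harvest. The labels leave unsaid whether the libraries of a group are separate cultures or animals. The p-values therefore rest on the spread among these 6 libraries alone, and that spread may be technical.

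A fibrillar collagen molecule is a rod of intertwined chains, each made of long runs of repeats with regularly spaced glycines. Type I collagen, the main collagen of scars, joins chains from Col1a1 and Col1a2, while type III is built of Col3a1 chains alone. Type V and type XI chains enter the same fibrils in small amounts, where they start fibril assembly and limit fibril diameter. The chains are hydroxylated and folded in the endoplasmic reticulum, exported as procollagen, trimmed by proteases outside the cell and crosslinked by lysyl oxidases.

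The messages of the type I chains share a sequence around the start codon. It is part of a stem-loop that the protein LARP6 is known to bind in type I collagen messages. Below, 12 bases before and 15 bases after the start codon are shown for the chains of types I and V, as T in place of U, from GENCODE transcripts of GRCm38; capitals mark the start codon.
Col1a1: tagggtctagacATGttcagctttgtggac
Col1a2: taagtggtagacATGctcagctttgtggat
Col5a2: tcatatttagacATGatggcaaactgggtg
Col5a1: caccccgccggcATGgacgtacacacccgc
Col5a3: ggccccgctgggATGagaagctgccggaga
Of the 30 bases, Col1a2 shares 24 with Col1a1, Col5a2 shares 13, and Col5a1 and Col5a3 share 8 and 9. These numbers include the start codon, which is the same in all. Of chains not shown, Col27a1 shares 15, Col11a1 12, Col24a1 11 and Col11a2 9, so the 13 of Col5a2 lies within the range of chains of other types.

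Promoters were examined because Wt1, the target of the siRNA, encodes a factor that binds DNA. The first 250 bases of the promoter entry (RefSeq, GRCm38.p6) are shown for 2 chains that rose, Col1a2 and Col5a3, and for Col3a1, which fell. For Col1a2, Col3a1 and Col24a1 these bases end just before the gene start given below. The windows of Col5a1, Col5a3, Col11a1 and Col11a2 run partly into the gene as given below. That of Col27a1 lies wholly inside it, so these windows are not all upstream sequence. Capitals mark 6 motifs searched on both strands: CCAAT (the CCAAT box), TATAAA (the TATA box), GGGCGG (the Sp1 box), CAGACA (a Smad box), TCCTCCTCC (a TCC repeat) and GNGGGGGNG (a pattern of the kind bound by WT1 and EGR zinc fingers). The last can overlap an Sp1 box or a TCC repeat. Matches are a description of letters, not of binding.
Col1a2, chr6:4505368-4505617, plus strand: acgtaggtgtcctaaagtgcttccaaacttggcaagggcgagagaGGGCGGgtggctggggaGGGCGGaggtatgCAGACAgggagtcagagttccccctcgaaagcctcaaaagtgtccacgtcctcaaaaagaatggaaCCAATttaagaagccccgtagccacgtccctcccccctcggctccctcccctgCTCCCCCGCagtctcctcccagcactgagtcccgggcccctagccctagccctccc
Col5a3, chr9:20815068-20815317, minus strand: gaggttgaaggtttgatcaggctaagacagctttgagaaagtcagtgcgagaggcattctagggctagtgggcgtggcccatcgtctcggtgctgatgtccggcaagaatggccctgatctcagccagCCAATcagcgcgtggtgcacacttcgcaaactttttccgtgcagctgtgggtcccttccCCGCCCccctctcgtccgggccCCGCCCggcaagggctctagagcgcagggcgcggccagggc
Col3a1, chr1:45311288-45311537, plus strand: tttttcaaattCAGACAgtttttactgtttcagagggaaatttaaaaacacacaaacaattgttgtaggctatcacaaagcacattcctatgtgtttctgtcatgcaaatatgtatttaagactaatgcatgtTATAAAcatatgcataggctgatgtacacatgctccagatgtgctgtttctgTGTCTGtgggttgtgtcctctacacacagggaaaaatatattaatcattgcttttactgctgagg
Promoter entries were found for 8 of the 10 chains, not for Col1a1 and Col5a2. The Sp1 box was present in 6 of the 8, against 32.7% of 32851 mouse promoters of the same length, the CCAAT box in 3 (33.8%), the Smad box in 3 (17.1%), the TATA box in 2 (12.4%) and the TCC repeat in 0 (2.45%). The GNGGGGGNG pattern was present in 4 of the 8 (Col1a2, Col5a1, Col11a1 and Col24a1), against 17.0% of all promoters. The Col3a1 window had 35.2% G and C, which is reached or undercut by 5.41% of promoters (median 52.4%), while the windows of the other 7 chains had 57.6% to 76.4%. Col3a1 had a TATA box and 2 Smad boxes and no CCAAT box, Sp1 box or match to the zinc finger pattern. Such features were also seen in other chains: Col11a2 had a TATA box, and Col1a2 and Col5a1 had a Smad box each. Col5a1, Col11a2, Col24a1 and Col27a1 also lacked a CCAAT box, and Col24a1 an Sp1 box. Col5a3, Col11a2 and Col27a1 also had no match to the zinc finger pattern.

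Total counts per library were 26.1 to 32.1 (in units of 1e6), so that 3 counts are worth 0.0935 to 0.115 counts per 1e6 counts (CPM). Pairs of libraries of a group differed more than sampling noise (chi-square per degree of freedom 18.9 to 70.9), so each was counted as 1 sample. Wt1 itself was at 48.8, 55.7 and 51.5 CPM in the controls and at 11.4, 8.63 and 7.92 CPM after its siRNA. That is a 5.59-fold fall (adjusted p = 5.98e-06 by the quasi-likelihood test of edgeR with Benjamini-Hochberg adjustment). At an adjusted p below 0.05, 1284 of 14190 genes tested rose and 1459 fell, and with scaling by library size alone 855 rose and 1829 fell. Without library 4 the numbers were 578 and 785, and without library 5 they were 836 and 1071.

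After Wt1 siRNA, 7 of the 10 fibrillar collagen chains were higher and 1 was lower. The 7 were both type I chains, all 3 type V chains and both type XI chains, and the lower one was Col3a1, the type III chain. For comparison, 9.05% of all genes tested were higher and 10.3% lower (19.3% in either direction). The rises were between 1.35-fold (Col5a2) and 2.24-fold (Col11a2), and the fall of Col3a1 was 1.38-fold. The median log2 fold change of the 10 chains was 0.62, against 0.00349 over all genes tested. In 9 chains the groups stood apart without overlap, 7 higher and 2 lower (Col3a1 and Col24a1). Over all genes tested the groups did not overlap in 36.4%, with 18.1% higher and 18.3% lower. All 10 chains passed the filter on low counts, Col24a1 through its control libraries alone, since just 1 of its Wt1 siRNA libraries reached the minimum. With library 4 left out, 4 chains were higher (Col1a1, Col1a2, Col5a3 and Col11a1) and 0 lower by edgeR (Col3a1 then had an adjusted p of 0.0708). The same 4 rose when any other single library was left out.

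**Figure D1:**
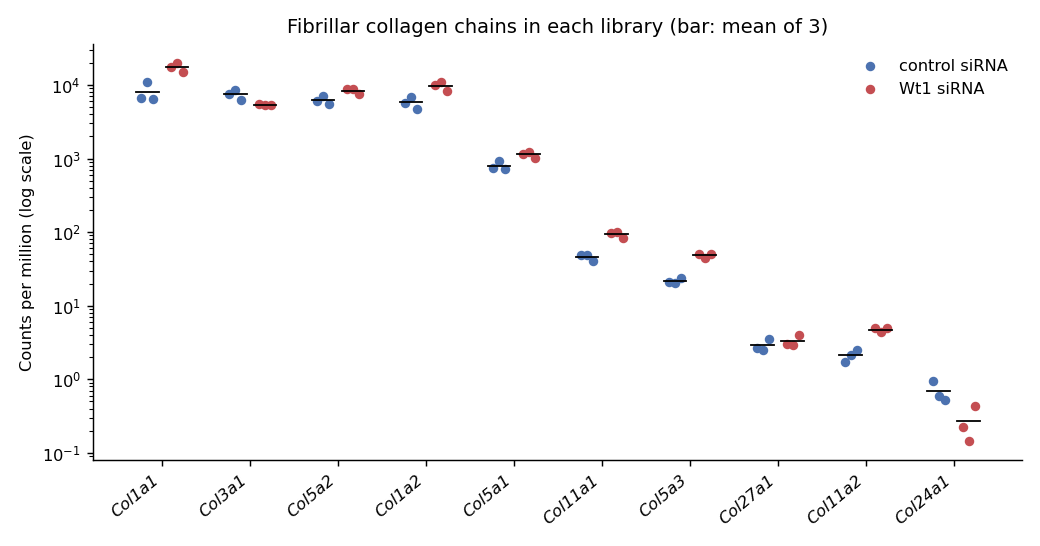
Level of each fibrillar collagen chain in CPM (log axis) in the 3 control siRNA libraries (blue) and the 3 Wt1 siRNA libraries (red), with a bar at each group mean. Red points lie above blue points in 7 chains, below them in Col3a1 and Col24a1, and among them in Col27a1.

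Col1a1 encodes the major chain of type I collagen (gene ID 12842, GRCm38 chromosome 11, 94936224 to 94953042). It stood at 6554, 11040 and 6352 CPM in control libraries 1 to 3 and at 17372, 19958 and 14932 CPM in Wt1 siRNA libraries 4 to 6. Library 2 was high among the controls, yet every Wt1 siRNA library lay above it. The control mean of 7982 ± 2651 CPM compares with a mean of 17421 ± 2514 CPM after Wt1 siRNA (SD, n = 3). The log2 fold change was 1.13 ± 0.19 (SE; edgeR adjusted p = 0.00172). Without library 2 the log2 fold change was 1.43, and it was 0.99 to 1.43 with each library left out in turn.

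Col1a2 encodes the partner chain of type I collagen (gene ID 12843, chromosome 6, 4505618 to 4541543). It was at 5683, 6954 and 4742 CPM in the controls and at 9869, 10808 and 8287 CPM after Wt1 siRNA. Both groups kept apart, and library 2 was again the highest of the controls. The log2 fold change was 0.74 ± 0.14 (edgeR adjusted p = 0.00365), a 1.67-fold rise, and 0.61 to 0.89 with 1 library left out.

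Col3a1, the single chain of type III collagen (gene ID 12825, chromosome 1, 45311538 to 45349706), went the other way. It had 7532, 8496 and 6261 CPM in the controls and 5471, 5351 and 5352 CPM after Wt1 siRNA. All 3 Wt1 siRNA libraries were below the lowest control and lay close together in CPM: their coefficient of variation was 1.28%, against 15.1% in the controls. That closeness depends on the scaling factors used for CPM, which were 0.978, 0.94 and 0.996 in libraries 4 to 6. The log2 fold change was -0.46 ± 0.11 (edgeR adjusted p = 0.0135), with adjusted p = 0.0708 when library 4 was left out. Exons of Col3a1 overlap those of Gm47302, a microRNA gene on the same strand, so strand cannot tell their reads apart.

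The gene next to Col3a1 is Col5a2, a type V chain (gene ID 12832, chromosome 1, 45374331 to 45503282). The pair is transcribed toward each other on opposite strands, with 24.6 kb between their ends and no other annotated gene in the gap. Col5a2 was at 6145, 7039 and 5440 CPM in the controls and at 8712, 8833 and 7633 CPM after Wt1 siRNA, so that the neighbours changed in opposite directions. Its log2 fold change of 0.43 ± 0.11 (edgeR adjusted p = 0.0178) was the smallest called among the chains. Leaving out library 1, 3, 4 or 5 gave adjusted p-values of 0.0528, 0.058, 0.0976 and 0.0607.

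Col5a1, the chain present in nearly all type V molecules (gene ID 12831, chromosome 2, 27886381 to 28039510), was at 745, 920 and 730 CPM in the controls and at 1155, 1222 and 1030 CPM after Wt1 siRNA. All Wt1 siRNA libraries were above all controls. The log2 fold change was 0.51 ± 0.12 (edgeR adjusted p = 0.0102), with adjusted p = 0.0605 without library 4. Exons of Col5a1 overlap those of 2810430I11Rik and Gm13372 on the opposite strand, and reads of these could not be told apart if strand was not used in counting.

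Col5a3 is the rarest type V chain in these cells (gene ID 53867, chromosome 9, 20770050 to 20815117). It stood at 21.1, 20.3 and 23.6 CPM in the controls and at 49.9, 44.1 and 50.7 CPM after Wt1 siRNA. Both groups were tight, with coefficients of variation of 7.99% and 7.39%. Its log2 fold change of 1.15 ± 0.13 had the smallest p of the 10 chains (edgeR adjusted p = 1.44e-04).

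The type XI chains are best known from cartilage, where they form the core of thin fibrils, and are close relatives of the type V chains. Col11a1 (gene ID 12814, chromosome 3, 114030479 to 114220756) was at 48.6, 49.1 and 40.5 CPM in the controls and at 98.1, 99.1 and 82.0 CPM after Wt1 siRNA, a log2 fold change of 1.01 ± 0.12 (edgeR adjusted p = 2.64e-04). Every Wt1 siRNA library lay well above every control. Col11a2 (gene ID 12815, chromosome 17, 34038919 to 34066684) was rare, with 1.73, 2.15 and 2.48 CPM in the controls and 4.91, 4.39 and 4.91 CPM after Wt1 siRNA. These values rest on 56 to 66 reads in a control library and 121 to 157 in a Wt1 siRNA library. The groups did not overlap (log2 fold change 1.16 ± 0.30, edgeR adjusted p = 0.0179), and leaving out library 1, 4 or 6 gave adjusted p-values of 0.0529, 0.0704 and 0.0509. Of 6 cartilage markers, Matn1, Cnmd and Snorc had no read in any library, and Acan and Hapln1 had reads in 1 library each. Matn3, the 1 cartilage marker tested, was at 1.08, 1.16 and 1.43 CPM in the controls and at 2.75, 2.14 and 1.41 CPM after Wt1 siRNA, with overlapping groups (log2 fold change 0.78 ± 0.46, edgeR adjusted p = 0.277). Its part in the Col11a2 result was not tested. The list summed to 1.08 to 1.43 CPM in controls and 1.41 to 3.20 CPM after Wt1 siRNA.

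Col24a1 and Col27a1 form a separate, more distant branch of the family, and neither passed the test. Col27a1 (gene ID 373864, chromosome 4, 63214009 to 63334991) was at 2.69, 2.50 and 3.53 CPM in the controls and at 2.98, 2.90 and 3.97 CPM after Wt1 siRNA, with overlapping groups. Its log2 fold change was 0.18, with a 95% interval of -0.52 to 0.88 (edgeR adjusted p = 0.757). Col24a1 (gene ID 71355, chromosome 3, 145292472 to 145552013) had 31, 17 and 14 reads in the controls and 6, 4 and 14 reads after Wt1 siRNA, which are 0.957, 0.598 and 0.526 CPM and 0.223, 0.145 and 0.438 CPM. The groups did not overlap in CPM. Its log2 fold change of -1.35 had a 95% interval of -3.02 to 0.33 (edgeR adjusted p = 0.257), so that no change was detectable at this depth.

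**Figure D2:**
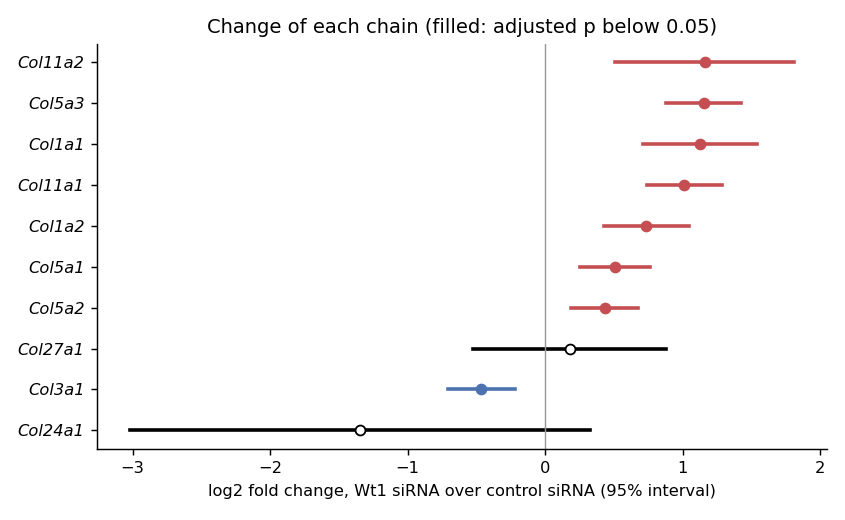
Log2 fold change of each chain, Wt1 siRNA over control siRNA, with its 95% interval from the edgeR fit; filled points passed an adjusted p below 0.05. Red chains rose, between 0.43 (Col5a2) and 1.16 (Col11a2), Col3a1 fell (blue), and the intervals of Col27a1 and Col24a1 include 0.

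Levels of different chains were compared per length, as CPM per kilobase of annotated exon. In the controls the order was Col1a1 at 1216 ± 404, Col3a1 at 757 ± 114, Col5a2 at 647 ± 83.6, Col1a2 at 466 ± 89.3 and Col5a1 at 94.0 ± 12.5 CPM per kilobase (SD, n = 3). Control libraries of Col3a1 and Col5a2 overlapped in this order. Col11a1 at 3.61 ± 0.381 and Col5a3 at 3.19 ± 0.254 CPM per kilobase also overlapped, and Col11a2, Col27a1 and Col24a1 were below 0.37 in each control library. After Wt1 siRNA Col1a1 was at 2654 ± 383 CPM per kilobase and at rank 1 again, while Col3a1 went from rank 2 to rank 4, at 549 ± 7.03. The control order of Col1a1 and Col3a1 holds for this length alone: with the longest transcript they were at 1346 ± 447 and 1335 ± 202 CPM per kilobase and overlapped. With the longest transcript, 4 chains changed rank in the controls, among them Col1a2, which then ranked above Col5a2 (1083 ± 208 and 937 ± 121 CPM per kilobase, overlapping), and Col3a1 went from rank 2 to rank 4 with this length too.

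Ratios between chains within a library do not depend on how libraries are scaled. For 8 pairs of chains chosen by shared molecule or fibril, the ratio of counts was compared between the groups by an exact two-sided permutation test, whose smallest p with 3 against 3 libraries is 0.1. The groups were apart in 7 of the 8 pairs, each at the exact permutation p = 0.1 (0.114 after Benjamini-Hochberg adjustment), so that no pair could pass 0.05. The ratio of Col1a1 to Col3a1 counts was 0.870, 1.30 and 1.01 in the controls and 3.17, 3.73 and 2.79 after Wt1 siRNA, a 3.06-fold higher ratio. The ratio of Col1a2 to Col3a1 was 0.755, 0.819 and 0.757 in the controls and 1.80, 2.02 and 1.55 after Wt1 siRNA. These differences are larger than the spread within either group.

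Ratios within types I and V are given next; none passed the test. The ratio of Col1a1 to Col1a2 counts was 1.15, 1.59 and 1.34 in the controls and 1.76, 1.85 and 1.80 after Wt1 siRNA, a 1.34-fold higher ratio with library 2 nearest to the Wt1 siRNA libraries. Among type V chains the ratio of Col5a1 to Col5a2 was 0.121, 0.131 and 0.134 in the controls and 0.133, 0.138 and 0.135 after Wt1 siRNA, with overlapping groups (exact permutation p = 0.2). The ratio of Col5a3 to Col5a1 was 0.0283, 0.0221 and 0.0324 in the controls and 0.0432, 0.0361 and 0.0492 after Wt1 siRNA, a 1.56-fold higher ratio. The ratio of Col5a1 to Col1a1, the main chains of types V and I, was 0.114, 0.0834 and 0.115 in the controls and 0.0665, 0.0612 and 0.0690 after Wt1 siRNA.

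**Figure D3:**
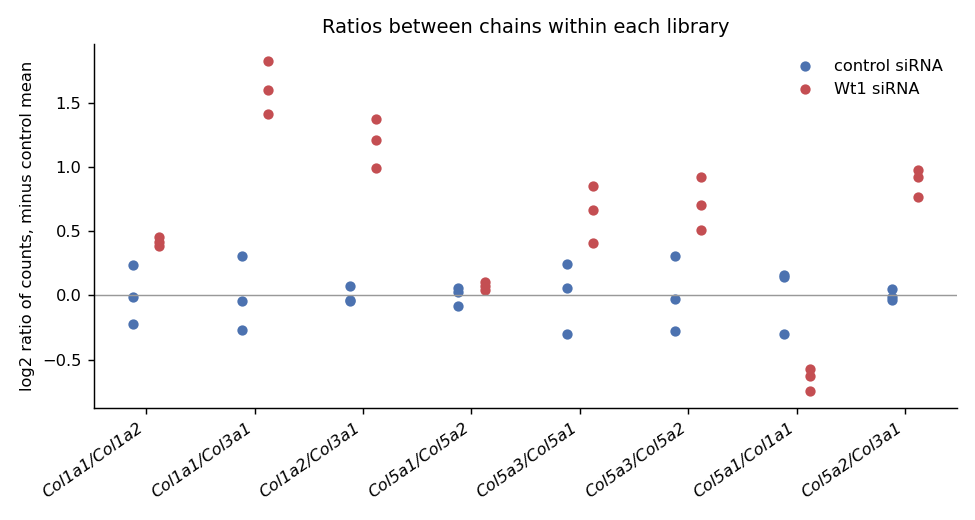
Log2 ratio of counts of 8 chain pairs in each library, after subtracting the control mean, for control siRNA (blue) and Wt1 siRNA (red) libraries. The shift is largest for Col1a1 over Col3a1 (1.62), and the groups overlap for Col5a1 over Col5a2 alone.

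Together the 10 chains took 2.85%, 3.47% and 2.40% of all counts in the controls and 4.18%, 4.35% and 3.72% after Wt1 siRNA, with exact 95% binomial intervals within 0.0075 percentage points, which cover counting error only. All Wt1 siRNA libraries were above all controls in this share. Col1a1 supplied 27.8% ± 3.81 of the reads of the family in the controls and 41.2% ± 1.64 after Wt1 siRNA (SD, n = 3), and Col3a1 26.4% ± 1.78 and 12.9% ± 1.39. Col5a2 gave 22.2% ± 1.52 and 20.0% ± 0.771. Per kilobase of exon, type III made up 24.0% ± 2.03 of the family in the controls and 11.1% ± 1.25 after Wt1 siRNA. In bulk samples such as these, a change in the number of cells that make a message and a change in message per cell cannot be told apart.

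**Figure D4:**
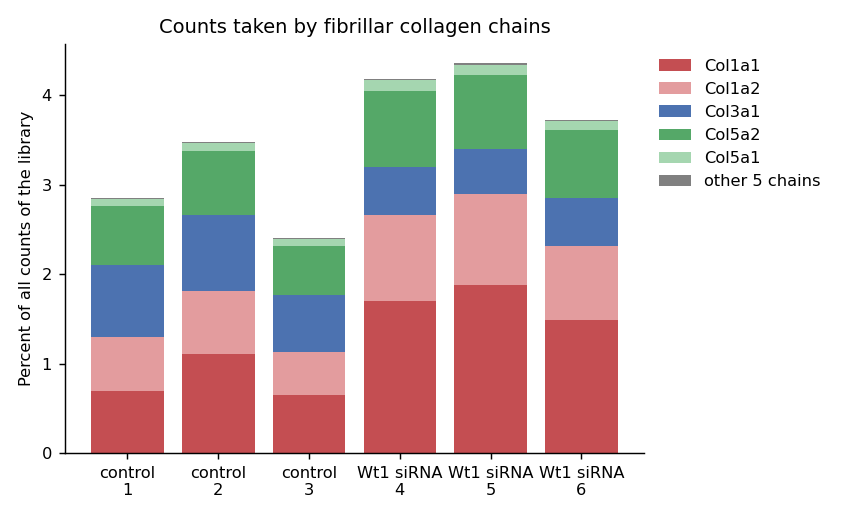
Percent of all counts of each library taken by fibrillar collagen chains, stacked by chain. The bars reach 2.40% to 3.47% in controls 1 to 3 and 3.72% to 4.35% in Wt1 siRNA libraries 4 to 6, with a wider red Col1a1 band and a narrower blue Col3a1 band in the latter.

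Within a group, several chains followed the same libraries. Library 2 was the highest control for 6 of the 10 chains (Col1a1, Col1a2, Col3a1, Col5a1, Col5a2 and Col11a1), and library 3 the lowest for 7. Among the Wt1 siRNA libraries, library 5 was highest and library 6 lowest for Col1a1, Col1a2, Col5a1, Col5a2 and Col11a1, while Col5a3, Col11a2, Col24a1 and Col27a1 had library 6 highest and library 5 lowest. The share of all genes with such highs and lows was not counted. Outside the family, Sparc was also highest in libraries 2 and 5 (6288, 10513 and 6453 CPM in the controls, 8823, 11386 and 6957 CPM after Wt1 siRNA). Dcn was lowest in both (741, 554 and 615 CPM, then 1028, 857 and 1073 CPM). By Pearson r of log2 CPM over the 6 libraries, the genes most like Col1a1 among 5404 genes at a mean log2 CPM of 5 or more were Fkbp10, a prolyl isomerase (0.998), Nt5c3b, a nucleotidase (0.998), and Ftl1, the ferritin light chain (0.994). Those most like Col3a1 were Limch1, an actin-binding protein (0.995), Synpo, synaptopodin (0.992), and Kdm3b, a histone demethylase (0.991). These values hold the group difference as well as the spread within groups, and 157 of the 5404 genes had r above 0.95 with Col1a1. Fkbp10 rose by 0.35 ± 0.10 on the log2 scale (edgeR adjusted p = 0.0316) and Ftl1 by 0.54 ± 0.13 (0.0125). Fkbp10 is also among the 4 higher genes of the procollagen folding list counted below. Limch1 fell by 0.82 ± 0.15 (0.00259) and Synpo by 0.37 ± 0.11 (0.0308), while Nt5c3b and Kdm3b did not pass (0.154 and 0.362). The call of Fkbp10 was lost with scaling by library size alone (0.0808) and without library 1, 3, 4 or 5 (0.0946 to 0.124). That of Ftl1 was lost when library 1 (0.0531), 3 (0.0538) or 4 (0.0505) was left out, and that of Synpo for each of libraries 1, 2, 4, 5 and 6 (0.0682 to 0.116).

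Around the chains, 6 lists of genes were counted in the same way; their counts stand beside 9.05% higher and 10.3% lower, and their medians beside 0.00349, over all genes tested. Of 12 tested genes of propeptide removal and crosslinking, which takes place outside the cell, 4 were higher and 2 lower (edgeR), with a median log2 fold change of 0.26. Adamts14, a protease that removes the amino-terminal propeptide, went from 9.11 ± 1.54 to 31.7 ± 0.979 CPM (SD, n = 3; log2 fold change 1.80 ± 0.16, edgeR adjusted p = 3.52e-05), and Adamts2, with the same activity, fell by 0.45 ± 0.13. The lysyl oxidases Loxl4 and Loxl2 rose by 1.55 ± 0.13 and 1.04 ± 0.10 on the log2 scale (adjusted p = 3.34e-05 and 5.39e-05). Lox rose by 0.85 ± 0.11 and Loxl3 fell by 0.44 ± 0.12. Both lower calls depended on single libraries: Adamts2 still passed when library 3 was left out but not when any other was (0.071 to 0.129), and Loxl3 passed without library 1 or 5 but not without 2, 3, 4 or 6 (0.0505 to 0.113). With 1 library left out, the number of lower genes was therefore 1 (libraries 1, 3 and 5) or 0 (libraries 2, 4 and 6).

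Of 23 tested genes of procollagen hydroxylation, folding and export, 4 were higher and 3 lower (edgeR), with a median of 0.19, and 16 did not pass. P4ha3, a catalytic subunit of a prolyl 4-hydroxylase, fell from 37.7 ± 1.50 to 16.9 ± 2.23 CPM (-1.16 ± 0.14, edgeR adjusted p = 2.06e-04), while the related subunit P4ha1 rose by 0.35 ± 0.11 (0.0399). The P4ha1 call was lost with scaling by library size (0.0808) and without library 1, 3, 4 or 5 (0.111 to 0.158). Colgalt1, which adds galactose to hydroxylysine, rose by 0.40 ± 0.10 (adjusted p = 0.0126, and 0.0898 without library 4). Fkbp14, a prolyl isomerase, fell by 0.40 ± 0.11 (adjusted p = 0.026), a call lost when any library but number 2 was left out (0.0587 to 0.117). Serpinh1, the collagen chaperone HSP47, went from 983 ± 133 to 1261 ± 114 CPM and did not pass (edgeR adjusted p = 0.0523). Serpinh1 did pass with DESeq2 (0.026), limma-voom (0.0391) or no filter (0.0291), and without library 2 (0.0106) or 6 (0.0437). The number of higher genes was 7 with DESeq2 or without library 2, 1 with scaling by library size or without library 3 or 5, and 0 without library 4. That of lower genes was 1 without library 1, 4 or 5.

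Of 17 tested proteins that bind fibrils or set their diameter, 5 were higher and 4 lower (edgeR), with a median of -0.05. Postn, periostin, rose from 366 ± 17.6 to 634 ± 40.4 CPM (0.79 ± 0.10, edgeR adjusted p = 2.94e-04) and Col14a1, a collagen that attaches to fibril surfaces, by 1.04 ± 0.16 (9.65e-04). Thbs2, thrombospondin 2, fell by 0.54 ± 0.11 (0.00419). Of the small leucine-rich proteoglycans in the list, Dcn, Lum and Ogn rose by 0.63 ± 0.13, 0.67 ± 0.14 and 0.47 ± 0.13, and Fmod and Prelp fell by 1.45 ± 0.39 and 0.79 ± 0.23, Prelp with overlapping groups. Bgn (0.03 ± 0.12), Aspn (0.55 ± 0.20) and Omd (-0.40 ± 0.23), of the same kind, did not pass (edgeR adjusted p = 0.899, 0.0774 and 0.253). Calls were lost for Ogn with scaling by library size (0.0774) and without library 3, 4 or 5 (0.0759 to 0.126), and for Fmod without library 1 (0.0658). Prelp was lost with DESeq2 (0.0931) and without library 1, 2, 4 or 6 (0.076 to 0.112). Lower genes numbered 2 without library 1 or 4.

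Of 26 tested factors that act on fibrillar collagen genes or messages, 4 were higher and 4 lower (edgeR), with a median of -0.02. Tgfb2, a TGF-beta ligand, rose from 59.3 ± 7.95 to 136 ± 16.7 CPM (1.20 ± 0.13, edgeR adjusted p = 1.48e-04) and Ets1, a transcription factor, by 0.63 ± 0.12 (0.00324). The ligands Tgfb1 (-0.02 ± 0.12) and Tgfb3 (0.08 ± 0.10) did not pass (edgeR adjusted p = 0.934 and 0.670). Runx1, a transcription factor, fell by 0.81 ± 0.13 (0.00135). Also called were Ccn2 (0.62 ± 0.125, 0.00482), Ybx3 (0.34 ± 0.10, 0.0402) and Cebpb (-0.56 ± 0.13, 0.0125), which were not followed singly in the alternative runs. Smad3, which carries TGF-beta signals to the nucleus, fell by 0.38 ± 0.12 (0.0384), and Sp1, which binds GC boxes, had 0.03 ± 0.13 and did not pass (0.905). Smad2 (0.29 ± 0.11), Smad4 (0.12 ± 0.10) and Smad7 (-0.02 ± 0.11) did not pass either (edgeR adjusted p = 0.0924, 0.466 and 0.929). The Smad3 call was lost without library 3, 4, 5 or 6 (0.0538 to 0.151). Larp6, named here for the stem-loop shown above after its values were seen, was at 12.9, 21.3 and 12.1 CPM in the controls and at 7.81, 9.79 and 7.60 CPM after Wt1 siRNA (-0.88 ± 0.23, edgeR adjusted p = 0.0208). The call of Larp6 was lost without library 2 (-0.58, adjusted p = 0.0667), 4 (0.0923) or 6 (0.061). Lower genes of the list numbered 1 without library 4 and 2 without library 6.

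Of 9 tested receptors for fibrillar collagen, 2 were higher and 2 lower (edgeR), with a median of -0.11. Itgb1, the beta-1 integrin chain shared by collagen-binding integrins, rose from 3295 ± 192 to 4654 ± 317 CPM (0.50 ± 0.10, edgeR adjusted p = 0.00386), and Ddr2, a receptor tyrosine kinase for fibrillar collagen, by 0.38 ± 0.10 (0.0167). Adgrg1, an adhesion receptor that binds Col3a1 chains, fell by 1.29 ± 0.34 (0.0191), from 7.59 ± 1.44 to 3.10 ± 1.35 CPM. Of the integrin alpha chains in the list, Itga1 fell by 0.41 ± 0.12 (edgeR adjusted p = 0.0336), a call lost without library 1, 2, 4, 5 or 6. Itga2, Itga10 and Itga11 did not pass (edgeR adjusted p = 0.0968, 0.936 and 0.941). The call of Ddr2 was lost with scaling by library size (0.0514) and without library 4 (0.0876) or 5 (0.0655), and that of Adgrg1 without library 2 (0.0552). Higher receptors numbered 1 with scaling by library size or without library 4 or 5. Lower receptors numbered 0 without library 2 and 1 without library 1, 4, 5 or 6.

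Of 13 tested genes of collagen breakdown and its inhibitors, 1 was higher and 5 lower (edgeR), with a median of -0.30. Mmp8, a collagenase, fell from 415 ± 22.5 to 93.7 ± 16.8 CPM (-2.15 ± 0.14, edgeR adjusted p = 5.98e-06), Mmp14, a membrane-bound collagenase, by 0.39 ± 0.10 and Mmp2, a gelatinase, by 0.52 ± 0.11. The inhibitors Timp1 and Timp3 fell by 1.25 ± 0.16 and 0.89 ± 0.10 (adjusted p = 3.31e-04 and 1.75e-04), and Timp2 rose by 0.44 ± 0.10. The other 7 did not pass. Mmp13 had -0.15 ± 0.22 (edgeR adjusted p = 0.687) and Mmp16 -1.12 ± 0.37 (0.0513). Ctsk had 0.51 ± 0.17 (0.0581), Mmp9 1.42 ± 0.53 (0.0842) and Fap 0.14 ± 0.12 (0.466). Mrc2 had -0.09 ± 0.12 (0.664), and Mmp15, whose value is the median, -0.30 ± 0.42 (0.682). Timp2 did not pass without library 4 (0.0585), nor Mmp14 without library 1, 4 or 5 (0.0864 to 0.0927). Higher genes numbered 3 with DESeq2, 2 with limma-voom, under either other filter, or without library 2 or 6, and 0 without library 4.

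**Figure D5:**
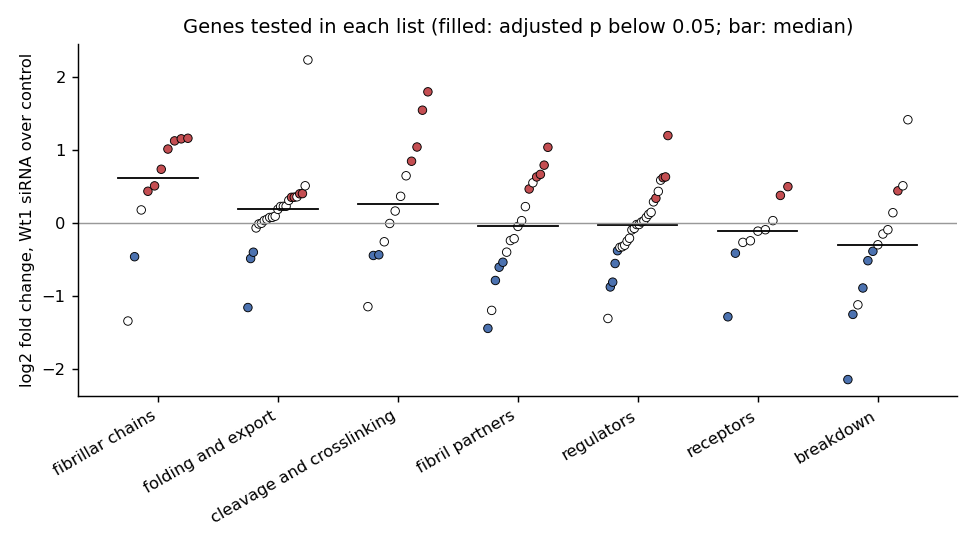
Log2 fold change, Wt1 siRNA over control siRNA, of each tested gene of the fibrillar chains and of 6 lists of genes around them; filled points passed an adjusted p below 0.05 (red higher, blue lower) and bars are medians. The bar of the chains is at 0.62. That of the breakdown list, which holds proteases and their inhibitors, is at -0.30, the value of Mmp15, which did not pass.

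The fibroblast label was checked against markers. Of 9 fibroblast markers Vim, Dcn and Lum were higher, Pdgfra was lower and 5 did not pass; their sum was 3943 to 4112 CPM in the controls and 4138 to 4483 CPM after Wt1 siRNA. Thy1 was at 6.21 ± 2.10 and 8.87 ± 3.47 CPM and Dpt was below 1 CPM in both groups' means (0.717 and 0.309). The 5 mesothelial markers were split, Msln, Krt19 and Nkain4 higher and Lrrn4 and Upk3b lower, with sums of 122 to 153 CPM in controls and 96.7 to 123 CPM after Wt1 siRNA. Of 6 endothelial markers Kdr was lower (-0.88 ± 0.23, edgeR adjusted p = 0.0191) and 5 did not pass, with sums of 102 to 127 and 82.9 to 103 CPM. The Kdr call was lost without library 1, 3 or 4 (0.0587 to 0.0904), and that of Vim without library 4 (0.0554). The sums were 359 to 406 and 319 to 391 CPM for 6 smooth muscle markers, 37.5 to 46.5 and 38.8 to 44.0 CPM for 5 pericyte markers, 28.0 to 39.2 and 28.6 to 32.4 CPM for 7 lung epithelial markers, with Scgb1a1 at 0, 2.67 to 7.25 and 3.52 to 4.29 CPM for 6 leukocyte markers, with Cd3e at 0, and under 1 CPM for 5 bone markers, with Ibsp and Sp7 at 0. Of the 18 markers of these 5 lists that were tested, 0 passed by edgeR and 4 had an unadjusted p below 0.05. Beside all marker counts here stand 19.3% of genes tested that passed in either direction. An unadjusted edgeR p below 0.05 was found for 4551 of the 14190 genes tested. The part of the mesothelial, endothelial or other markers in the changes of the chains was not tested.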

How the data were processed

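RNA from 6 libraries was measured by sequencing. The authors deposited raw whole-number counts of reads per Entrez gene, 1 column per library; per the submitters' processing notes, bcl2fastq, CASAVA 1.8, TopHat, DESeq and mm10 (GRCm38) were used, with no role given. The counting tool, annotation, strand setting and filters were not given in the sources used here. Groups and library numbers come from the sample titles.

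Symbols came from RefSeq (GRCm38.p6; 23976 IDs matched, 85 unnamed IDs stayed in the tests) and lengths from GENCODE M21. The listed gene Zfp469 had no row in the table. The fit across all genes used edgeR 4.0.16 (R 4.3.3): filterByExpr (minimum count 10), TMM, quasi-likelihood F test on the siRNA group, Benjamini-Hochberg adjustment over 14190 genes, threshold 0.05. CPM use the TMM factors; SE is the absolute log2 fold change over the square root of F; log2 CPM for likeness used a prior count of 2. DESeq2 1.42.0, limma-voom (limma 3.58.1), other scalings (among them TMM factors computed without the chains), other filters and leaving out each library were tried. Ratios used scipy 1.17.1. The script was tested on simulated counts.

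Named genes are the 10 chains, Wt1, up to 3 called genes of each of 6 lists, by p, and the 3 genes most like Col1a1 and Col3a1 (mean log2 CPM of at least 5). Other genes were named after their values were seen. Members and lists were chosen with earlier results of these data known. A further start codon window is not reported here.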

Additional observations from a re-analysis of the deposited data

How the results depend on the processing

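Of 67 results for single genes and chain ratios, 42 kept their direction and side of the threshold under each alternative run, and calls that were lost are given beside each gene. The 8 ratios are among the 42, but their tests could not reach 0.05, so only their direction was open to change. Col24a1, Col27a1, Nt5c3b and Kdm3b are also among the 42 and passed in no run. The 42 is therefore not a count of calls that were kept. The exception in direction was Sp1, near 0 throughout: its log2 fold change was -0.054 with scaling by library size and -0.044 to 0.13 with 1 library left out. Scaling by library size gave 855 higher genes of all tested, 1 higher folding gene and 1 higher receptor. DESeq2 gave 7 higher folding genes and 3 higher breakdown genes, and limma-voom, no filter and the stricter filter gave 2 higher breakdown genes each. With the longest transcript as length, 4 chains changed rank. Under the 7 alternatives that keep all libraries, 7 chains were higher and 1 lower in each.

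With 1 library left out, counts by edgeR ranged as follows: 578 to 1253 genes higher and 785 to 1406 lower, with the lowest of each without library 4; 4 to 7 chains higher and 0 to 1 lower; folding 0 to 7 higher and 1 to 2 lower; cleavage and crosslinking 0 to 1 lower; fibril partners 2 to 4 lower; regulators 1 to 5 lower; receptors 1 to 2 higher and 0 to 2 lower; breakdown 0 to 2 higher. No paired analysis was possible because the libraries are numbered 1 to 6 and the groups share no number. Depth limits Col24a1, with 4 to 31 reads a library. The ratio tests cannot reach 0.05 with 3 libraries a group.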
